A study of Homo sapiens with 8 samples.

Results

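REV3L and the genes of translesion DNA synthesis were followed through RNA-seq of RKO cells, an established line of human colon carcinoma with intact beta-catenin signaling. The set holds 9 of the 57992 genes counted in each library: REV3L, REV1, MAD2L2, POLH, POLK, POLI, POLQ, POLN and RAD18. REV3L was chosen by its difference between the groups in these same libraries, so its difference is described here and not tested. The other 8 were picked by function, as polymerases that copy damaged DNA or as their regulators, once the REV3L difference was known. All 9 were found in the files by Ensembl identifier and GENCODE symbol, and all 9 passed the low-count filter that left 13412 genes in the fit.

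The study compared 4 libraries from cells given a control siRNA with 4 from cells given an siRNA against A20, the ubiquitin-editing protein encoded by TNFAIP3 and best known as a brake on NFkB signaling. Both groups received wnt3a at 50 ng/mL for 24 hours after the knockdown. The control cells therefore carried an siRNA and the wnt ligand as well, and no library without wnt3a was analysed here. The comparison asks which transcripts differ after an siRNA against A20 in wnt3a-stimulated cells. Loss of A20 and other effects of that siRNA cannot be told apart in these libraries. The cells are 1 line, and the sources do not say whether the 4 libraries of a group came from separate cultures, so each p-value covers only the spread between these libraries.

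Translesion synthesis lets a replication fork pass a damaged base that the replicative polymerases cannot copy. RAD18 is the ubiquitin ligase that marks the sliding clamp PCNA at a stalled fork, and the mark helps recruit the low-fidelity polymerases. One of the inserters, encoded by POLH, POLI and POLK, or REV1 itself, places a base opposite the lesion, and polymerase zeta then extends the primer. REV3L is the catalytic subunit of polymerase zeta, MAD2L2 (also called REV7) is its small adaptor subunit, and REV1 is the scaffold that brings the polymerases together. POLQ and POLN encode A-family polymerases, of which POLQ is best known for joining broken ends through short homologies. Loss of POLH causes the variant form of xeroderma pigmentosum, and loss of Rev3l is lethal to mouse embryos.

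The stretches of 250 bases before the annotated starts of REV3L and REV1 are shown because these were the members whose groups did not overlap, and because the cells had been exposed to a wnt ligand and to knockdown of an NFkB regulator. They were taken from RefSeq on GRCh38.p14, all on the minus strand and written 5′ to 3′. REV3L has a pair of annotated starts, with windows at chr6:111483712-111483961 and chr6:111483219-111483468, and the REV1 window lies at chr2:99490018-99490267. Capitals mark the match to a searched motif.
REV3L, first window: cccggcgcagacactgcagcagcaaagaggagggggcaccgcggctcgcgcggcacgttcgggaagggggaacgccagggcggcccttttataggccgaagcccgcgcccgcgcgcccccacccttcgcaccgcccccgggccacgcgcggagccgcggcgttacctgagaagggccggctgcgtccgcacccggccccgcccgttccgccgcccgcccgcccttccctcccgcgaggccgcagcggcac
REV3L, second window: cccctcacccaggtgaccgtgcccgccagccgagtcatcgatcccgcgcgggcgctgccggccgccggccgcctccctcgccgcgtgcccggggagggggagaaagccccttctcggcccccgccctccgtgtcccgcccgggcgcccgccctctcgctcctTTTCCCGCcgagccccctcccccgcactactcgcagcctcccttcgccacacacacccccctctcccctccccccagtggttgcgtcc
REV1: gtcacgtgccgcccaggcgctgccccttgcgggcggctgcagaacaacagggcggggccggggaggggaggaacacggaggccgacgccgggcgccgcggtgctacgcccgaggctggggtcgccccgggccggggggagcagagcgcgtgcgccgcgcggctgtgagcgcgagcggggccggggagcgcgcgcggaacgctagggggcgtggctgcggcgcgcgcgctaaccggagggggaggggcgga

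These windows were rich in G and C, at 78.4% and 77.2% for REV3L and 80.8% for REV1. The search covered a TCF/LEF motif (CTTTGAT), an NFkB motif (GGGA, any base, then TTTCC) and an E2F motif (TTTCCCGC) on both strands. The NFkB and E2F letters share TTTCC, so a stretch could match both. Over 35114 RefSeq windows of the same length, 2.26% held the TCF/LEF letters, 0.527% the NFkB letters and 1.39% the E2F letters. Of the 11 windows of the 9 genes, 0 held the TCF/LEF letters, 0 held the NFkB letters and 2 held the E2F letters. One of these was the second REV3L window, 88 to 81 bases before the start, and the other belonged to POLI, 213 to 206 bases before its start. A match is a run of letters and not a measured binding site, and a window without one says only that these letters were not in it. The RefSeq windows were not matched in G and C content to those of the 9 genes. At shares this low 0 matches in 11 windows is the usual outcome, so neither enrichment nor absence is read from these counts.

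The libraries held 21226451 to 34194273 counted reads. Levels within a gene are given as CPM (counts scaled to a library of standard size) after scaling by TMM (a trimmed mean that sets the libraries to a shared scale), and 3 counts correspond to 0.0877 to 0.141 CPM. TNFAIP3, the targeted gene, was at 4.92, 5.83, 5.59 and 5.54 CPM in control siRNA replicates 1 to 4. It was at 3.47, 3.01, 3.40 and 3.43 CPM in A20 siRNA replicates 1 to 4. The groups did not overlap, and TNFAIP3 fell to 60.8% of the control mean (5.47 ± 0.388 against 3.33 ± 0.215 CPM, SD, n = 4 each, exact two-sided permutation p = 0.0286, the smallest that 4 against 4 allows). Of the epithelial markers, EPCAM, KRT8, KRT18 and CDX2 were present at group means of 13.1 to 97.6 CPM, while CDH1 had 0 counts in every library and VIL1 had 0 or 1. Of the markers of other cell types, PTPRC and COL3A1 were at 0 counts throughout, COL1A1 at 0 to 4 and PECAM1 at 0 to 3. In cultured cells read in bulk, fewer cells with a transcript and less transcript per cell cannot be told apart.

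REV3L was higher in every A20 siRNA library than in every control library. Its level was 64.0, 61.2, 63.7 and 59.3 CPM in control siRNA replicates 1 to 4, from 1403 to 1924 reads. In A20 siRNA replicates 1 to 4 it was 74.2, 70.6, 70.8 and 74.9 CPM, from 1592 to 2545 reads. The gap between the groups lay between 64.0 CPM, the highest control library, and 70.6 CPM, the lowest A20 siRNA library. Mean REV3L was 62.0 ± 2.20 CPM in control and 72.6 ± 2.24 CPM in A20 siRNA cells (SD, n = 4 each), which is 17.0% higher. On the log2 scale the difference was 0.22 with an SE of 0.03 and a 95% interval of 0.16 to 0.29. These values describe the pattern for which REV3L was selected and support nothing further. Over 19 alternative fits the REV3L difference lay between 0.20 and 0.25.

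The REV3L gene spans 184688 bases on chromosome 6 (GENCODE 44, chr6:111299028-111483715, minus strand, ENSG00000009413), with 12420 bases of exon. Of these exonic bases, 117 (0.94%) overlap exons of the antisense gene TRAF3IP2-AS1. The strand setting of the counting is not given in the sources used here, so reads of REV3L and of its antisense partner cannot be told apart over these bases. TRAF3IP2-AS1 was itself at 3.34 ± 0.263 CPM in control and 2.70 ± 0.560 CPM in A20 siRNA cells, a log2 difference of −0.29 (SE 0.13, edgeR adjusted p = 0.294). A second overlap of 576 bases (4.64%), with ENSG00000272356, involved a gene of 8 to 29 reads per library. Neither neighbour was near the level of REV3L.

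**Figure D1:**
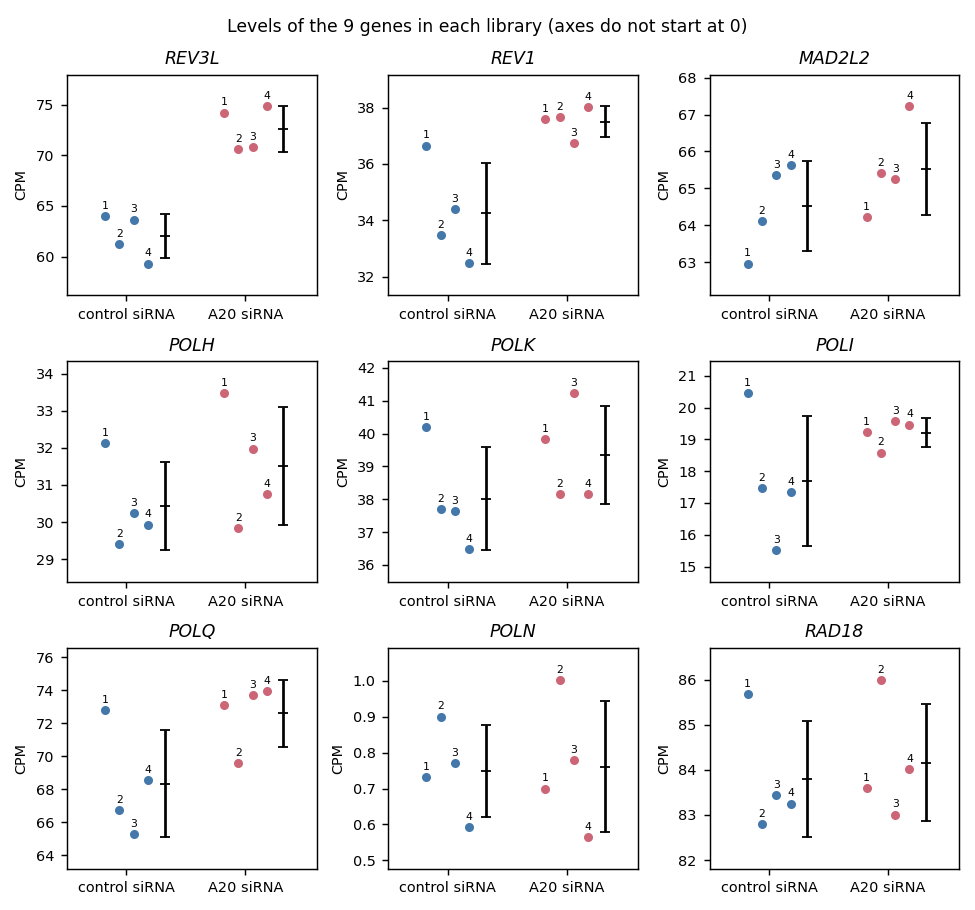
Level of each of the 9 genes in CPM (y axis, separate for each gene and not starting at 0) in the 4 control siRNA (blue) and 4 A20 siRNA (red) libraries, numbered by replicate, with the group mean and SD as bars. The groups are separate for REV3L (59.3 to 64.0 against 70.6 to 74.9 CPM) and, narrowly, for REV1, and overlap for the other 7 genes.

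REV1, the scaffold that binds both the inserters and polymerase zeta, was the only other member whose groups did not overlap. It was at 36.65, 33.47, 34.41 and 32.47 CPM in control siRNA replicates 1 to 4. In A20 siRNA replicates 1 to 4 it was at 37.59, 37.67, 36.73 and 38.03 CPM. The separation was narrow, since control replicate 1 at 36.65 CPM lay just under A20 siRNA replicate 3 at 36.73 CPM. The means were 34.3 ± 1.79 and 37.5 ± 0.549 CPM (SD, n = 4 each), 9.50% apart. The log2 difference of 0.13 (SE 0.04, 95% interval 0.05 to 0.21) did not pass the quasi-likelihood test of edgeR once adjusted over all genes by the Benjamini-Hochberg method (adjusted p = 0.101). Over the alternative fits the REV1 difference ranged from 0.10 to 0.16.

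MAD2L2, the partner subunit of REV3L, was at nearly the same level in both groups. Control siRNA replicates 1 to 4 were at 63.0, 64.1, 65.4 and 65.6 CPM, and A20 siRNA replicates 1 to 4 at 64.2, 65.4, 65.2 and 67.2 CPM. The groups overlapped, from 64.2 to 65.6 CPM. The log2 difference was 0.02 (SE 0.03) with a 95% interval of −0.04 to 0.08 (edgeR adjusted p = 0.762). Per kilobase of exon, the ratio of REV3L to MAD2L2 was 0.444, 0.418, 0.426 and 0.395 in control siRNA replicates 1 to 4. The same ratio was 0.505, 0.472, 0.474 and 0.487 in A20 siRNA replicates 1 to 4. Every A20 siRNA library thus had more REV3L reads for each MAD2L2 read than any control library, a comparison that uses the REV3L values by which the gene was chosen. The ratio of REV3L to REV1 was 1.09 to 1.16 in control and 1.17 to 1.24 in A20 siRNA libraries.

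Of the 3 inserters, POLH encodes polymerase eta, which copies accurately past ultraviolet-induced thymine dimers. POLH was at 32.1, 29.4, 30.2 and 29.9 CPM in control siRNA replicates 1 to 4. It was at 33.5, 29.8, 32.0 and 30.8 CPM in A20 siRNA replicates 1 to 4. The groups overlapped, and the highest library of each was replicate 1. Its log2 difference was 0.05 (SE 0.04, 95% interval −0.04 to 0.14, edgeR adjusted p = 0.598).

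POLK encodes polymerase kappa, which passes bulky adducts on guanine. Its control libraries were at 40.2, 37.7, 37.7 and 36.5 CPM, and its A20 siRNA libraries at 39.8, 38.2, 41.2 and 38.2 CPM. Again the groups overlapped, with control replicate 1 above 3 of the 4 A20 siRNA libraries. The log2 difference was 0.05 (SE 0.04, 95% interval −0.03 to 0.13, edgeR adjusted p = 0.581).

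POLI encodes polymerase iota, the most error-prone of the inserters on undamaged templates. It was at 20.5, 17.5, 15.5 and 17.3 CPM in control siRNA replicates 1 to 4 and at 19.2, 18.6, 19.6 and 19.5 CPM in A20 siRNA replicates 1 to 4. All 4 A20 siRNA libraries lay above control replicates 2, 3 and 4 and below control replicate 1. The control libraries scattered with a coefficient of variation of 11.6%, against 4.67% from counting alone. The A20 siRNA libraries scattered by 2.31%, below the 4.44% of counting alone, so no difference in spread between the groups is read from this. The log2 difference was 0.11 (SE 0.06, 95% interval −0.02 to 0.24, edgeR adjusted p = 0.409).

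POLQ, the end-joining polymerase theta, was at 72.8, 66.8, 65.3 and 68.5 CPM in control siRNA replicates 1 to 4. In A20 siRNA replicates 1 to 4 it was at 73.1, 69.6, 73.7 and 74.0 CPM. Control replicate 1 alone reached into the range of the A20 siRNA libraries. The log2 difference of 0.08 (SE 0.03, 95% interval 0.01 to 0.15) had an unadjusted p of 0.0212 and an edgeR adjusted p of 0.214.

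POLN, the other A-family polymerase, was close to the limit of detection at 12 to 28 reads per library. Its levels ran from 0.592 to 0.900 CPM in control and from 0.564 to 1.00 CPM in A20 siRNA cells. The coefficients of variation of 17.0% and 24.1% were close to the 22.8% that counting alone gives at this depth. Its log2 difference of 0.03 had a 95% interval of −0.44 to 0.50, so a difference as large as that of REV3L was not detectable in either direction (edgeR adjusted p = 0.961). POLN also shares exonic bases on the same strand with other annotated genes. It shares 686 (8.88%) with HAUS3, a spindle gene at 41.6 CPM in control cells, so the low counts of POLN are uncertain. The annotation used for overlaps also places 3691 (47.8%) of its exonic bases in ENSG00000290263. That gene has no entry among the counts used here, so it is not taken as a reason for this uncertainty.

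RAD18, which starts the pathway by ubiquitylating PCNA, was the steadiest member. It was at 85.7, 82.8, 83.4 and 83.3 CPM in control siRNA replicates 1 to 4. It was at 83.6, 86.0, 83.0 and 84.0 CPM in A20 siRNA replicates 1 to 4. The groups overlapped from 83.0 to 85.7 CPM, and their coefficients of variation, 1.54% in both, were below the 2.14% and 2.12% of counting alone. The log2 difference was 0.01 with a 95% interval of −0.05 to 0.06 (SE 0.03, edgeR adjusted p = 0.939).

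**Figure D2:**
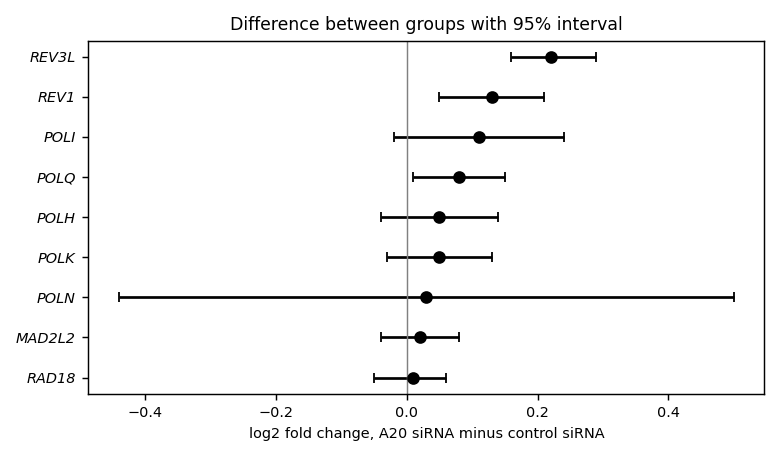
Log2 fold change of each gene, A20 siRNA minus control siRNA (x axis), with its 95% interval from the edgeR fit of 4 against 4 libraries. The values run from 0.22 for REV3L, which was chosen by this difference, to 0.01 for RAD18, and the interval of POLN (−0.44 to 0.50) is the widest.

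Of the 9 genes, 1 passed an adjusted p of 0.05 in the upward direction, and that was REV3L. Over all 13412 tested genes 0.634% passed in that direction and 0.611% passed in the other, and since REV3L was selected on this contrast nothing is read from its call. Of the other 8, 0 passed with edgeR, and likewise 0 with DESeq2 and 0 with limma-voom, while 2 of the 8 (REV1 and POLQ) had an unadjusted p under 0.05 in edgeR. The share of all tested genes under that unadjusted threshold is not given here, so nothing is read from this count. Groups without overlap, higher in A20 siRNA cells, occurred for 1 of these 8 genes, beside 3.71% of all tested genes (3.9% lower, 7.61% in either direction). Leaving out REV3L, whose direction was fixed by its selection, all 8 log2 differences were above 0, with a median of 0.05. Over all tested genes the median was 0 and 51.6% were above 0, but among the 1130 at least as long as REV3L 68.7% were. The differences of RAD18 (0.01), MAD2L2 (0.02) and POLN (0.03) were smaller than their SE, so no shared rise is read from this count.

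The count of passing members depended on 1 library. Control siRNA replicate 1 was the highest control library for REV3L, REV1, POLH, POLK, POLI, POLQ and RAD18, and the lowest for MAD2L2. Without it REV1 (log2 difference 0.16, edgeR adjusted p = 0.0125), POLQ (0.12, adjusted p = 0.0284) and POLI (0.19, adjusted p = 0.0343) passed beside REV3L. Without it the whole table also held more passing genes, 567 in place of 85 higher and 430 in place of 82 lower. No other single library changed the call of a member when left out.

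**Figure D3:**
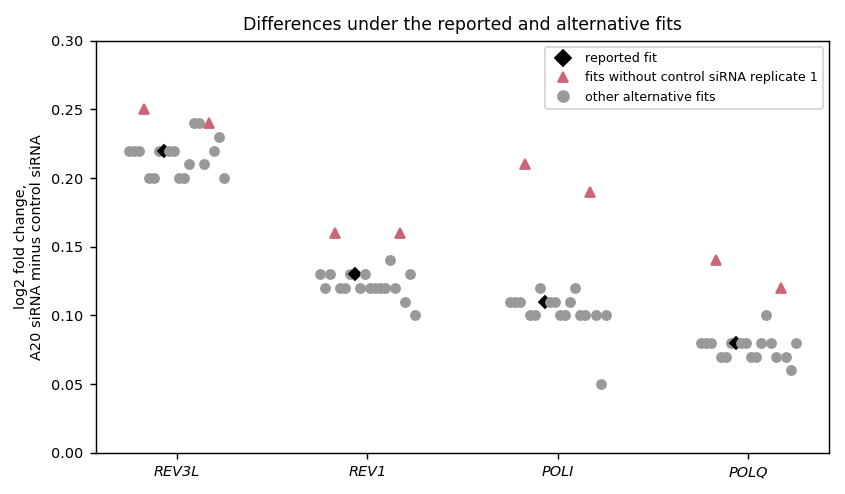
Log2 fold change, A20 siRNA minus control siRNA (y axis), of REV3L, REV1, POLI and POLQ under the reported fit (black diamond), the pair of fits without control siRNA replicate 1 (red triangles) and the other alternative fits (grey). Without that library REV1 lies at 0.16, POLI at 0.19 and 0.21 and POLQ at 0.12 and 0.14.

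All 9 genes are long, with 5431 to 17863 bases of exon, all above the median of 4982 bases for the tested genes. The libraries differed in how gene levels deviated with length, with Spearman correlations across genes of 0.08, −0.165, −0.112 and −0.203 in control siRNA replicates 1 to 4. The same correlations were 0.072, −0.082, 0.141 and 0.172 in A20 siRNA replicates 1 to 4. Control replicate 1 and A20 siRNA replicate 2 thus had the sign of the opposite group. The 1130 tested genes at least as long as REV3L had a median log2 difference of 0.03, and 68.7% of them were above 0. With a length correction in the fit the REV3L difference was 0.20, that of REV1 0.12, and the median of the 9 genes 0.04. All 9 stayed above 0 with this correction, but RAD18 rounded to 0 and POLK fell from 0.05 to 0.01. With both libraries of opposite trend left out, a setting chosen after seeing the data, REV3L was at 0.25 and REV1 at 0.16 (edgeR adjusted p = 0.0205), POLI at 0.21 (adjusted p = 0.0322) and POLQ at 0.14 (adjusted p = 0.0101).

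**Figure D4:**
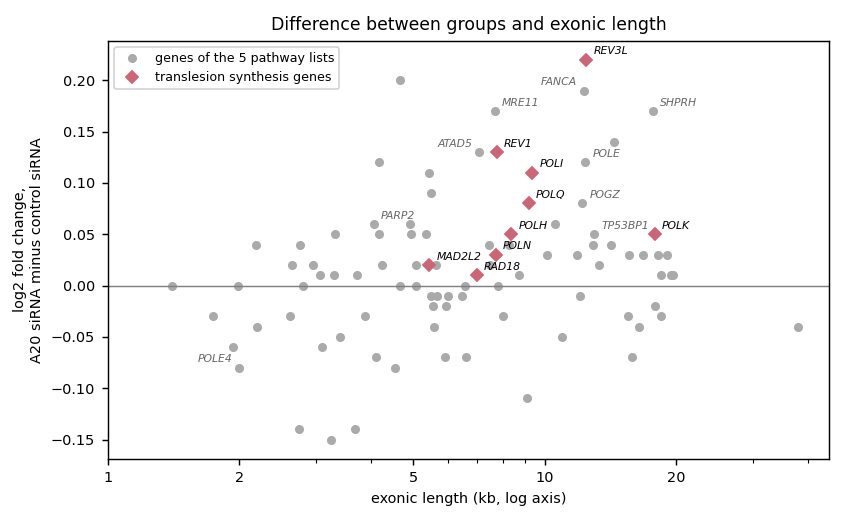
Log2 fold change, A20 siRNA minus control siRNA (y axis), against exonic length in kilobases (x axis, log scale) for the 9 translesion synthesis genes (red diamonds) and the genes of the 5 related lists (grey circles). REV3L (0.22) and FANCA (0.19), both above 12 kb, lie highest among the labelled genes, and POLK, the longest member, is at 0.05. The unlabelled POLM, with 4662 exonic bases, is at 0.20.

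Levels between genes were compared as RPKM (CPM per kilobase of exon), averaged over the 8 libraries. RAD18 at 12.0 RPKM (range 11.9 to 12.3) and MAD2L2 at 12.0 RPKM (11.6 to 12.4) were highest and were not separated, with RAD18 above in 4 of 8 libraries. POLQ followed at 7.67 RPKM (7.11 to 8.05). REV3L at 5.42 RPKM (4.78 to 6.03) and REV1 at 4.62 RPKM (4.18 to 4.90) came next, with overlapping ranges but REV3L above REV1 in 8 of 8 libraries. The catalytic subunit of polymerase zeta was thus below its partner MAD2L2 per length in all 8 libraries, at the ratios of 0.395 to 0.505 given above. Of the inserters, POLH was at 3.70 RPKM (3.51 to 4.00), POLK at 2.17 RPKM (2.04 to 2.31) and POLI at 1.97 RPKM (1.66 to 2.19). POLN was last at 0.0978 RPKM (0.0731 to 0.13), 20.2-fold below POLI.

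This order depended on which length stands for a gene. Divided by the longest coding transcript in place of all exons, MAD2L2 was alone at the top at 35.0 RPKM, ahead of RAD18 at 14.3. REV1 (7.58) then lay above REV3L (6.15), and POLI (3.06) above POLK (2.65). MAD2L2 has 5431 exonic bases, of which 1860 are in its longest coding transcript and 876 (16.1%) overlap FBXO6 on the opposite strand. REV1 shares 852 of its 7769 exonic bases with EIF5B, an antisense neighbour at 226 CPM in control cells, and reads over these bases cannot be told apart. EIF5B itself had a log2 difference of 0.05 (edgeR adjusted p = 0.416).

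**Figure D5:**
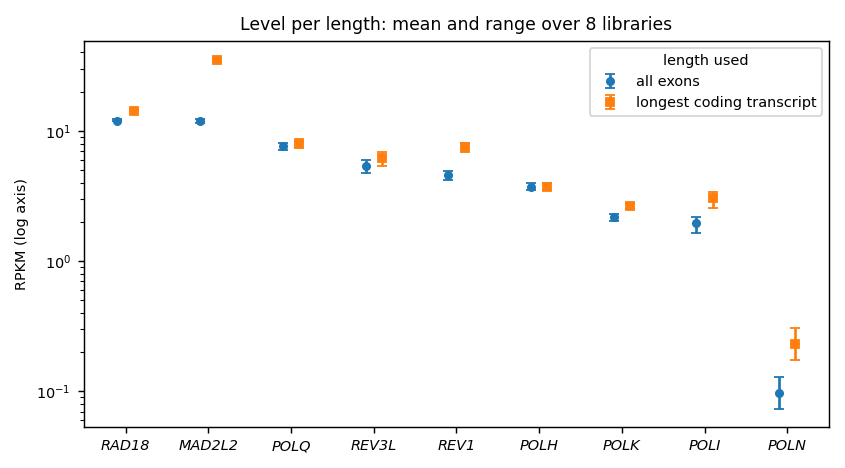
Level per length in RPKM (y axis, log scale) of the 9 genes, as the mean (points) and range (bars) over 8 libraries, with all exons (blue) or the longest coding transcript (orange) as the length. RAD18 and MAD2L2 lead with all exons at 12.0 RPKM each, POLN is lowest with either length, and MAD2L2 moves to 35.0 RPKM with the transcript length.

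Across the 8 libraries REV1 followed REV3L most closely among the members. The Pearson correlation of their log2 CPM was 0.916 (Spearman 0.929), which ranked 48 among the tested genes, and the deviations from the group means gave 0.764. POLQ came next at 0.711 (Spearman 0.857), with 0.319 for the deviations. The remaining members lay between 0.545 for POLI and −0.079 for POLN, with MAD2L2, the binding partner, at 0.349. These correlations rest on n = 8 libraries in groups that REV3L separates, share the depth and length trend of those libraries, and are given without a test.

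The 5 genes with the pattern most like that of REV3L were ENSG00000226380, CXCL8, CLDN12, CROCCP3 and EOGT. Their Pearson correlations were 0.963 to 0.978 over the 8 libraries and 0.755 to 0.880 for the deviations from group means. They were taken as the highest correlations among 13412 tested genes, with a gene itself chosen for separating the groups. High correlations and separate groups follow largely from that choice, so no shared regulation is read from them. CLDN12, a claudin of cell contacts, was at 83.7 ± 1.47 CPM in control and 93.9 ± 1.74 CPM in A20 siRNA cells. CXCL8, the neutrophil chemokine interleukin 8, had 8 to 12 reads in control and 22 to 44 reads in A20 siRNA libraries. CROCCP3 is a pseudogene with near-identical relatives, so its counts are uncertain, and it did not pass (edgeR adjusted p = 0.0781). EOGT, a glycosyltransferase of the endoplasmic reticulum, was at 84.8 ± 1.56 and 89.6 ± 1.42 CPM and did not pass either (edgeR adjusted p = 0.129).

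The pathway around the members was read from 5 lists with 86 genes, of which 84 were tested. Of these 84, 1 passed the adjusted threshold upward and 0 passed downward in edgeR, beside 0.634% and 0.611% of all tested genes. An unadjusted p under 0.05 occurred for 13, and the share of all tested genes under it is not given here. This count, and those per list below, are therefore a description from which nothing is read. DESeq2 and limma-voom called the same single gene, FANCA. The median log2 difference over the 84 genes was 0.01, with 48 above 0 and 36 below. Groups did not overlap for 3 genes higher in A20 siRNA cells (SHPRH, FANCA and MRE11) and for 3 lower (UBE2B, UBE2V2 and RPA3). Over all tested genes these shares were 3.71% and 3.9%.

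The first list holds the genes that modify PCNA and switch polymerases at the fork. Of its 22 genes 21 were tested, and HLTF, at 2 to 11 reads per library, was left out by the low-count filter. Of the 21, 0 passed and 6 had an unadjusted p under 0.05 in edgeR, with 7 above 0 and 14 below (median −0.01). SHPRH, a ligase that extends the ubiquitin chain on PCNA, was at 31.1 ± 2.21 CPM in control and 35.0 ± 0.662 CPM in A20 siRNA cells (log2 difference 0.17, edgeR adjusted p = 0.0614). ATAD5, which unloads PCNA and brings in the enzyme that removes its ubiquitin, was at 56.6 ± 3.03 and 62.0 ± 1.22 CPM (0.13, adjusted p = 0.0673).

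Among the replicative and other polymerases and primases, 18 of 19 genes were tested, 0 passed and 2 had an unadjusted p under 0.05 in edgeR (11 above 0, 7 below, median 0.02). POLE, the catalytic subunit of the leading-strand polymerase, was at 109 ± 4.97 CPM in control and 118 ± 4.02 CPM in A20 siRNA cells (log2 difference 0.12, edgeR adjusted p = 0.0716). POLE4, a small subunit of the same enzyme, had a difference of −0.08 (adjusted p = 0.286). MAD2L2 also works outside translesion synthesis, for example in the shieldin complex that protects broken ends. The next list holds 7 of its partners outside translesion synthesis, within shieldin and beyond it. Of these 7 genes 0 passed and 1 had an unadjusted p under 0.05 in edgeR (5 above 0, 2 below, median 0.03). POGZ had a log2 difference of 0.08 (edgeR adjusted p = 0.23) and TP53BP1, which recruits shieldin through RIF1, one of 0.05 (adjusted p = 0.476).

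The Fanconi anaemia pathway repairs crosslinked strands and relies on polymerase zeta to fill the gap it opens. Of its 24 tested genes 1 passed upward and 0 downward in edgeR, beside 0.634% and 0.611% of all tested genes. An unadjusted p under 0.05 occurred for 2 in edgeR, with 12 genes above 0 and 12 below and a median of 0. The gene that passed was FANCA, a subunit of the core ubiquitin ligase. It was at 28.3, 26.2, 26.7 and 26.2 CPM in control siRNA replicates 1 to 4 and at 31.2, 30.5, 30.9 and 29.6 CPM in A20 siRNA replicates 1 to 4. The groups did not overlap, and the log2 difference was 0.19 (SE 0.04, edgeR adjusted p = 0.0319). This call was lost when any of 5 libraries was left out: control replicate 2 (adjusted p = 0.117), 3 (0.0834) or 4 (0.115), or A20 siRNA replicate 1 (0.0552) or 3 (0.112).

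The last list holds the partners of POLQ in end joining through short homologies. Of its 14 genes 0 passed and 2 had an unadjusted p under 0.05 in edgeR, with 13 above 0 and 1 below (median 0.03). MRE11, the nuclease that starts the resection of broken ends, was at 23.8 ± 0.604 CPM in control and 26.7 ± 1.22 CPM in A20 siRNA cells without overlap (log2 difference 0.17, edgeR adjusted p = 0.0508). PARP2, a sensor of strand breaks, had a difference of 0.06 (adjusted p = 0.289).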

How the data were processed

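RNA of 8 RKO samples was captured by poly(A) and sequenced as single reads. Per the study's methods, the authors trimmed reads with Trimmomatic, aligned them with STAR to GRCh38.p7 and deposited raw counts of uniquely assigned reads per GENCODE gene for each sample. Tool versions, the GENCODE release and the strand setting are not given in the sources used here. Symbols, exonic lengths and overlaps came from GENCODE 44, which matched 56948 of 57992 genes. Groups were taken from the sample labels. Counts were filtered with filterByExpr (minimum count 10), scaled by TMM and tested with edgeR 4.0.16 (glmQLFit, glmQLFTest, R 4.3.3), A20 siRNA against control siRNA without covariates, with Benjamini-Hochberg adjustment over 13412 genes and a threshold of 0.05. The scripts were tested on simulated data. DESeq2 1.42.0, limma-voom 3.58.1, other filters and scalings, corrections for length and GC (loess, span 0.5), a replicate block and leaving out each library were alternatives. The members and gene lists were chosen with earlier results of these data known. From each list, the genes that passed, or otherwise the 2 of smallest unadjusted p, were named, with the 5 genes most like REV3L. Intervals cover the spread between libraries only.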

Additional observations from a re-analysis of the deposited data

Results flagged for a closer look

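The level of TNFAIP3 in A20 siRNA replicate 2 stood apart from the other libraries of its group, at 3.01 CPM against 3.40 to 3.47 CPM. The gap to its nearest neighbour was 0.847 of the range of the group, above the critical value of Dixon's test for 4 samples. Over the 20 groups examined this way (TNFAIP3 and the 9 genes in each of the 2 conditions) chance alone would flag about 1, and 1 was flagged. REV3L in the same library was 70.6 CPM, the lowest of its group and above all 4 control libraries.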

How the results depend on the processing

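The REV3L difference, by which the gene was chosen, lay at 0.20 to 0.25 in the 19 alternative fits. Of the 152 values of the other 8 genes, 146 kept their side of the threshold and 6 newly passed it, all without control siRNA replicate 1, and the sign changed 3 times for POLN and 2 times for RAD18, neither of which passed. Members passing (1 as reported) numbered 1 to 4 with a library left out and 4 with both libraries of opposite length trend left out. Genes passing upward (85) numbered 314 without a low-count filter, 614 without both of those libraries and 6 to 567 with 1 library left out. Genes passing downward (82) numbered 310, 483 and 6 to 430 in the same settings. The extremes came without A20 siRNA replicate 3 (6 and 6) and without control siRNA replicate 1 (567 and 430). Pathway genes passing (1) numbered 7 without a filter, 6 without both libraries and 0 to 6 with 1 library left out. Of the 9 places in the order of levels, 3 were kept with the longest coding transcript as length and 7 with the A20 siRNA libraries alone. TNFAIP3 had a difference of −0.72 in DESeq2, which gave no adjusted p for it. The sources used here do not say whether libraries with the same replicate number share more than that number. The deviations of such libraries from the group means correlated at −0.009 to 0.074, and 4 of 8 libraries correlated best with their own number. A fit with the replicate number as a block gave 262 genes higher, 212 lower and 5 pathway genes, with length correction 228, 224 and 4, and with length and GC correction 220, 224 and 4. The block changed no call of a member. The cause of these changes was not tested. POLN is limited by its 12 to 28 reads per library.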
